A study of Mus musculus with 4 samples.

Results

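Collagens, laminins and integrins, the genes of the fibres and sheets that surround cells and of the receptors that hold cells to them, were followed in droplet single-cell libraries from mouse kidney. The members are the genes listed in the A2 HTN, the SS HTN and the control count table whose symbol is a collagen chain (Col, digits, a, digits), a laminin chain (Lama, Lamb or Lamc with a digit) or starts with Itga or Itgb, Itga9 left out. This rule gave 46 of the 11049 genes shared by the 3 tables. They comprise 23 collagens, 9 laminins and 14 genes with an integrin name. Of these, Itgb1bp1 and Itgb3bp encode proteins that bind integrin tails and are not integrin chains, which leaves 12 chains. Their levels were compared between endothelial cells and all other cells, between Fbln5-positive and Igfbp3-positive endothelial cells, and between libraries.

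The A2 HTN library comes from C57BL/6J mice made hypertensive with angiotensin II, and the SS HTN library from C57BL/6J mice of a salt-sensitive hypertension model. The control table joins the library of saline-treated mice of the first model with that of mice on a normal diet of the second, and no source used here says which barcode ending belongs to which, so it was treated as 1 control sample. All mice were 10 to 14 weeks old, kidneys were pooled within a group, and cells were selected with magnetic beads for CD31 and then for podoplanin. Each group was treated as 1 pooled sample, the animals behind a library cannot be told apart, and no test between libraries was run. The sources used here give no agent dose or diet composition.

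Basement membranes are thin sheets under endothelium and epithelium, built from a laminin network and a type IV collagen network. A laminin is a cross-shaped trimer of an alpha, a beta and a gamma chain, and type IV collagen is a trimer of alpha chains. Integrins are receptors made of an alpha and a beta chain. Itgb1 encodes the beta chain that pairs with most of the alpha chains listed here and serves collagen and laminin receptors alike. In the glomerulus of the kidney, podocytes supply the alpha 3, alpha 4 and alpha 5 chains of type IV collagen, while alpha 1 and alpha 2 chains form the network around most vessels and tubules.

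A cell was called endothelial when Pecam1, Cdh5, Kdr and Tie1 together had at least 3 UMIs (unique molecular identifiers, which count captured RNA molecules) and at least 12 of every 10000 UMIs of the cell. This gave 1225 of 2837 cells in A2 HTN, 1519 of 3284 in SS HTN and 145 of 4414 in control, of which 19 and 126 came from the 2 control libraries. The endothelial sums held 5525341, 3965775 and 377434 UMIs in A2 HTN, SS HTN and control, and the sums of other cells 1859851, 2442399 and 4110930. Control endothelial values thus rest on a far smaller sum, in which 21 of the 46 members had 3 or fewer UMIs and 5 had none. The median endothelial cell held 4734 UMIs in A2 HTN, 2343 in SS HTN and 2679 in control. Other cells still carried 397, 434 and 193 CPM (UMIs per 1000000 UMIs of the sum) of the 4 endothelial genes in A2 HTN, SS HTN and control, against 3987, 3877 and 3746 CPM in endothelial cells, so a low level in either class is not a sign of expression in it. At most 2 barcodes were shared by any pair of libraries. Of 7 lymphatic markers, Prox1 and Flt4 were among the shared genes, and Prox1, the transcription factor that defines lymphatic endothelium, had 12, 32 and 0 UMIs in the endothelial sums of A2 HTN, SS HTN and control.

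Cells with a UMI of Fbln5 and none of Igfbp3 were called Fbln5-positive, and the converse Igfbp3-positive. There were 69, 189 and 7 Fbln5-positive cells in A2 HTN, SS HTN and control, and 774, 558 and 68 Igfbp3-positive cells. Cells with both genes (95, 107 and 5) or neither (287, 665 and 65) were kept out of this split. The 7 arterial markers other than Fbln5 summed to 2483 CPM in Fbln5-positive and 1124 CPM in Igfbp3-positive cells of A2 HTN, to 2783 and 1380 CPM in SS HTN, and to 1001 and 1008 CPM in control, where the 7 Fbln5-positive cells gave 17 arterial UMIs with 3 markers at 0. The 5 capillary markers other than Igfbp3 summed to 1663 and 8629 CPM in A2 HTN, 701 and 6211 CPM in SS HTN and 2062 and 8522 CPM in control. The markers therefore set the classes apart as arterial-marked and capillary-marked in both hypertension libraries, but in control only by the capillary list.

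**Figure D1:**
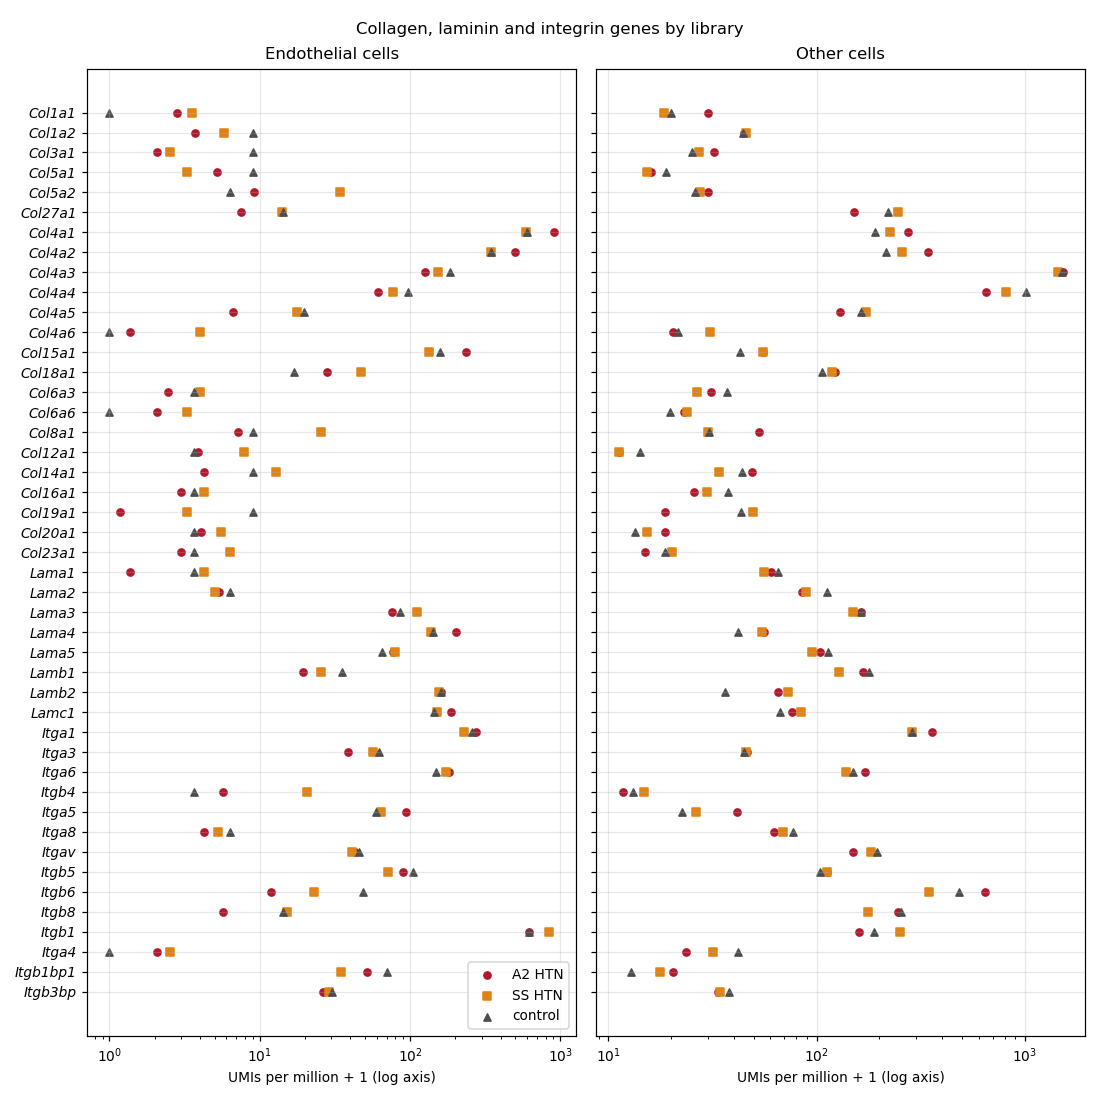
Level as CPM + 1 (log axis) of 45 of the 46 members in endothelial (left) and other cells (right), 1 point for each of A2 HTN, SS HTN and control. Col4a1 lies further right in endothelial than in other cells (905 and 273 CPM in A2 HTN), and Col4a3 further left (125 and 1521 CPM).

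The 6 type IV collagen chains split between the classes. Col4a1, the alpha 1 chain, was at 905 CPM in endothelial and 273 CPM in other cells of A2 HTN, at 593 and 224 CPM in SS HTN, and at 599 and 189 CPM in control. Col4a2, the alpha 2 chain that joins it, was at 495 and 342 CPM in A2 HTN, 345 and 257 CPM in SS HTN, and 344 and 214 CPM in control. Both were higher in endothelial cells of every library. Col4a3, a chain of the mature glomerular network, was at 125 CPM in endothelial and 1521 CPM in other cells of A2 HTN, at 152 and 1436 CPM in SS HTN, and at 183 and 1503 CPM in control. Its partner Col4a4 was at 60.3 and 651 CPM in A2 HTN, 75.9 and 811 CPM in SS HTN, and 95.4 and 1012 CPM in control. Col4a5 followed the same split, with 5.61 and 129 CPM, 16.6 and 171 CPM, and 18.5 and 162 CPM. These chains were lower in endothelial cells of every library, and Col4a6 had at most 12 UMIs in any endothelial sum. Among other cells, 1073 of 1612 in A2 HTN and 1201 of 1765 in SS HTN had a UMI of Col4a3, and their cell types were not tested.

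An edgeR quasi-likelihood test took the libraries as 3 replicates and as a block. Its error for a gene draws on the deviation of class differences between pooled libraries, in that gene and over all genes. In this test Col4a1 was higher in endothelial cells by 1.91 ± 0.20 on the log2 scale (SE, n = 3 libraries, adjusted p = 1.46e-04) and Col4a2 by 0.86 ± 0.18 (adjusted p = 0.00404). Col4a3 fell by 2.99 ± 0.24 (adjusted p = 7.15e-05), Col4a4 fell by 3.11 ± 0.20 (6.71e-05) and Col4a5 fell by 3.46 ± 0.28 (7.15e-05). Tubule markers, 21 of a list of 22, summed to 569, 1000 and 1685 CPM in endothelial cells and to 12884, 14146 and 15874 CPM in other cells of A2 HTN, SS HTN and control, and their part in the endothelial levels of Col4a3, Col4a4 and Col4a5 was not tested.

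The type IV genes lie as head-to-head pairs that start next to each other on opposite strands, so each pair can be read as a ratio within 1 sum. In GRCm38, Col4a1 lies on the minus strand of chromosome 8 and starts at 11312826, and Col4a2 lies on the plus strand and starts at 11312805, so that the annotated starts overlap. Col4a4 and Col4a3 start at 82586849 and 82586921 of chromosome 1 with 71 bases between them, and Col4a6 and Col4a5 at 141474076 and 141475385 of the X chromosome with 1308 bases between them. The sources used here do not say whether strand was used in counting, and reads of the Col4a1 and Col4a2 overlap could not be told apart without it. Col4a1 had 1.83 UMIs per UMI of Col4a2 in endothelial cells of A2 HTN (95% exact binomial interval 1.74 to 1.91), 1.72 in SS HTN (1.60 to 1.83) and 1.74 in control (1.39 to 2.17). In other cells the ratio was 0.797 (0.708 to 0.897), 0.871 (0.775 to 0.978) and 0.884 (0.802 to 0.975). The endothelial and other intervals did not overlap in any of the 3 libraries. All intervals cover counting error only.

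The starts of Col4a1, Col4a2 and Col4a4 are shown because these pairs carry the split between the classes. Each run holds 250 bases before and 50 after the RefSeq start (GRCm38.p6), read 5′ to 3′ on the gene's own strand, with capitals for each GC box (GGGCGG) and CCAAT box (CCAAT) on either strand. The windows are chr8:11312777-11313076 on the minus strand for Col4a1, chr8:11312555-11312854 on the plus strand for Col4a2 and chr1:82586800-82587099 on the minus strand for Col4a4.
Col4a1: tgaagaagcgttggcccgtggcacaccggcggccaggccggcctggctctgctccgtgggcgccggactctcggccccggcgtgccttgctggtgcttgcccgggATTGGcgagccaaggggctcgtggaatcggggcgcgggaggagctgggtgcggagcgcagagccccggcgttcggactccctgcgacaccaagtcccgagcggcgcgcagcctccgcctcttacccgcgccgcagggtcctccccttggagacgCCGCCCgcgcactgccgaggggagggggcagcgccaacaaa
Col4a2: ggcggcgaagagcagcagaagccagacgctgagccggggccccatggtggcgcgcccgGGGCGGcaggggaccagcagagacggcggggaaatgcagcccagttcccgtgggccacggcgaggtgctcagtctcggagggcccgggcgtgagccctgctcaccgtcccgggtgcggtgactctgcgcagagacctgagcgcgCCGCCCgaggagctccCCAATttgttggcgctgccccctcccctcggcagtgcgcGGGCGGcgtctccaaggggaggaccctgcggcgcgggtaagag
Col4a4: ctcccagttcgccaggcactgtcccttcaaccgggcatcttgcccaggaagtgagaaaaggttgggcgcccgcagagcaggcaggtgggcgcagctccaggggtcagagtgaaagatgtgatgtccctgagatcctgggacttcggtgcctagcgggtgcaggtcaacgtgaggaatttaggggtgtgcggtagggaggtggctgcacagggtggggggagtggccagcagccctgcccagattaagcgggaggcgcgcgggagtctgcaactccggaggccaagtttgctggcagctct
The Col4a1 and Col4a2 windows share 78 bases, so motifs within that stretch are counted in both. Col4a1 held 1 GC box and 1 CCAAT box, Col4a2 held 3 and 1, and Col4a4 held neither. None of the 3 held TATAAA. Of 34 members with a window, 21 held a GC box, 9 a CCAAT box and 1 TATAAA. Of all 32851 windows of this length, 35.7% held a GC box, 37.4% a CCAAT box and 13.6% TATAAA. The member counts are of genes and these percentages are of single windows. A gene with several windows would have more chances to hold a motif, so the member counts cannot be judged against the percentages. A match is a string of letters and not a binding site.

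**Figure D2:**
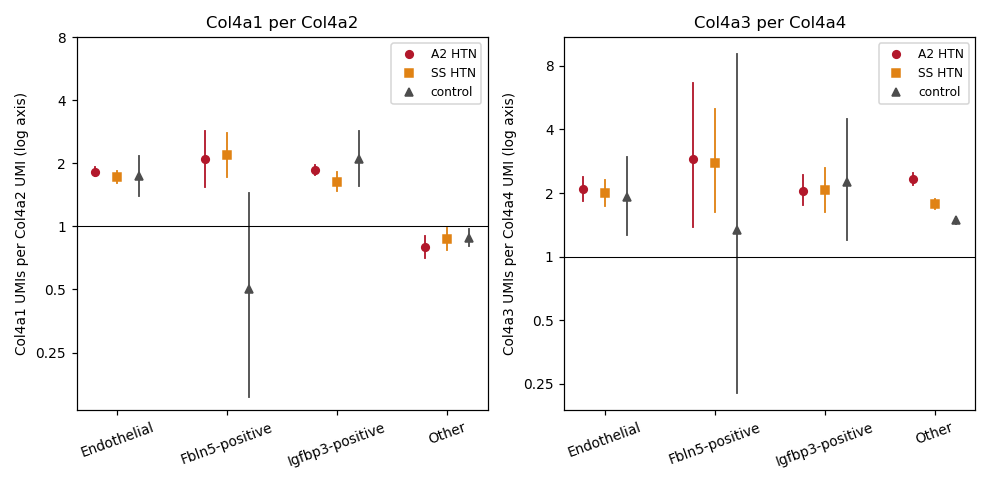
UMIs of Col4a1 per UMI of Col4a2 (left) and of Col4a3 per UMI of Col4a4 (right) in endothelial, Fbln5-positive, Igfbp3-positive and other cells of each library (points, log axis) with 95% exact binomial intervals (bars, counting error only). The Col4a1 ratio lies between 1.72 and 1.83 in endothelial cells and between 0.797 and 0.884 in other cells, and the control Fbln5-positive point rests on 6 and 12 UMIs.

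Col4a3 had 2.08 UMIs per UMI of Col4a4 in endothelial cells of A2 HTN, 1.997 in SS HTN and 1.92 in control. In other cells the ratio was 2.34 in A2 HTN (2.18 to 2.50), 1.77 in SS HTN (1.68 to 1.87) and 1.48 in control (1.43 to 1.54). This ratio thus differed between the libraries within other cells by more than counting error, with A2 HTN highest and control lowest, and did not set the classes apart. Col4a5 had 6.67, 5.73 and 7.85 UMIs per UMI of Col4a6 in other cells of A2 HTN, SS HTN and control.

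Over all members, 10 were higher and 27 lower in endothelial than in other cells at an adjusted p under 0.05, and 9 passed in neither direction. Of the 11043 genes tested, 35.5% were higher and 36.5% lower. The median log2 difference was -1.72 over the 46 members and -0.05 over all genes tested. The share of members called lower thus stood above that of all genes, and the share called higher below it. The members called higher were the beta 1 integrin chain, Col15a1, both Col4a1 and Col4a2, 3 laminin chains, 2 alpha chains and Itgb1bp1. With equal totals in place of TMM factors, the median of all genes moved by -0.304 and the split over all genes was 3173 higher and 4982 lower, against 3925 and 4034. Under that scaling 9 members were higher and 30 lower, and Itga6 no longer passed (log2 difference 0.15, adjusted p = 0.429), while Lama5, Col8a1 and Col12a1 were lower. The TMM differences printed here lie above those of the CPM values beside them, so a member such as Itga1 had lower CPM in endothelial cells of every library beside a difference near 0.

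Among the other basement membrane collagens, Col15a1, a vessel-associated chain that carries glycosaminoglycan, was at 236 CPM in endothelial and 54.3 CPM in other cells of A2 HTN, at 133 and 54.0 CPM in SS HTN, and at 156 and 41.8 CPM in control. It was higher in endothelial cells of each library, by 2.08 ± 0.20 on the log2 scale (SE, n = 3 libraries, edgeR adjusted p = 1.11e-04). Col18a1, the precursor of endostatin, was at 27.0 and 122 CPM, 45.9 and 118 CPM, and 15.9 and 105 CPM in the same order of libraries. It fell by 1.58 ± 0.24 in endothelial cells (adjusted p = 7.35e-04).

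Laminin alpha and beta chains were called in both directions. Lama4, the alpha 4 chain typical of vessel walls, was at 201 CPM in endothelial and 54.8 CPM in other cells of A2 HTN, 136 and 53.6 CPM in SS HTN, and 140 and 40.9 CPM in control, a log2 difference of 1.97 ± 0.18 (adjusted p = 8.42e-05). Lamb2, a beta chain of mature basement membranes, was at 160 and 64.0 CPM, 154 and 72.1 CPM, and 159 and 35.3 CPM, a difference of 1.79 ± 0.23 (3.14e-04). Lamc1, the common gamma chain, was at 185 and 75.3 CPM, 149 and 83.1 CPM, and 143 and 65.9 CPM, higher by 1.40 ± 0.16 (2.22e-04). Endothelial levels of these 3 chains exceeded those of other cells in every library. Lamb1, the other beta chain, went the opposite way, with 18.5 CPM in endothelial and 166 CPM in other cells of A2 HTN, 24.5 and 127 CPM in SS HTN, and 34.4 and 178 CPM in control, and it fell by 2.38 ± 0.22 (8.80e-05). Lama1 (-4.77), Lama2 (-4.03) and Lama3 (-0.51) were also lower in endothelial cells. Lama3 lost its call without A2 HTN or without control. Lama5, the broad alpha 5 chain, was at 75.8 and 103 CPM, 78.4 and 94.6 CPM, and 63.6 and 112 CPM, and did not pass (adjusted p = 0.423).

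Itgb1 showed the greatest log2 difference in favour of endothelial cells among the 46 members. It was at 614 CPM in endothelial and 160 CPM in other cells of A2 HTN, 834 and 251 CPM in SS HTN, and 623 and 188 CPM in control, a difference of 2.11 ± 0.20 (adjusted p = 9.68e-05). The alpha chains that pair with it did not move together. Itga5, which binds the RGD sequence of fibronectin, was at 93.0 and 40.3 CPM, 63.3 and 25.4 CPM, and 58.3 and 21.6 CPM and was higher by 1.61 ± 0.16 (1.15e-04). Itga6, a laminin-binding chain, was at 179 and 170 CPM, 172 and 138 CPM, and 148 and 149 CPM, a difference of 0.45 ± 0.16 (0.0362) that lost its call without A2 HTN (adjusted p = 0.0896) or without SS HTN (0.255). Itga1, a collagen-binding chain, was at 272 and 355 CPM, 227 and 286 CPM, and 257 and 285 CPM, and its difference of 0.02 ± 0.17 did not pass (0.931), with -0.29 under equal totals (0.171). Itga3, which binds laminins and is a podocyte receptor as well, was at 37.5 and 45.2 CPM, 55.7 and 45.0 CPM, and 60.9 and 44.0 CPM and did not pass either (0.44 ± 0.19, adjusted p = 0.0762).

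The beta chains Itgb6 and Itgb8, whose receptors bind and activate latent TGF-beta, were lower in endothelial cells. Itgb6 was at 10.9 CPM in endothelial and 643 CPM in other cells of A2 HTN, 21.9 and 347 CPM in SS HTN, and 47.7 and 480 CPM in control, and fell by 4.2 ± 0.49 (adjusted p = 2.05e-04). Itgb8 fell by 4.22 ± 0.40 (9.98e-05), with 4.71 and 244 CPM, 14.1 and 176 CPM, and 13.2 and 254 CPM. Itgav, their alpha partner, was at 42.4 and 148 CPM, 40.3 and 182 CPM, and 45.0 and 195 CPM and fell by 1.70 ± 0.16 (1.03e-04). Itga8, a chain of mesangial and other stromal cells, was at 3.26 and 61.3 CPM, 4.29 and 68.4 CPM, and 5.30 and 76.4 CPM and fell by 3.77 ± 0.21 (6.71e-05). Itgb5, the broadly expressed RGD-binding beta chain, was at 89.0 and 111 CPM, 70.4 and 111 CPM, and 103 and 103 CPM, with no call (0.825). All 3 libraries had Itgb6, Itgb8, Itgav and Itga8 lower in endothelial cells.

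The fibrillar collagens were scarce in endothelial cells. Col1a1, Col1a2, Col3a1, Col5a1, Col5a2 and Col27a1 together held 24.4, 57.5 and 42.4 CPM in endothelial cells of A2 HTN, SS HTN and control, against 299, 375 and 348 CPM in other cells. Col1a2, a chain of type I collagen, was at 2.71 CPM in endothelial and 44.1 CPM in other cells of A2 HTN, 4.79 and 44.6 CPM in SS HTN, and 7.95 (3 UMIs) and 43.3 CPM in control. It fell by 3.17 ± 0.29 in endothelial cells (adjusted p = 8.87e-05). Within other cells, those with 3 or more UMIs of the stromal and mural list held 89.7, 153 and 152 CPM of Col1a2 in A2 HTN, SS HTN and control, and those with fewer than 3 UMIs of that list and of the leukocyte list held 37.6, 33.3 and 39.1 CPM. Itga4, a chain of leukocyte integrins, was at 289, 119 and 497 CPM in the leukocyte-marked cells (6, 6 and 78 UMIs) and at 18.2, 26.3 and 22.6 CPM in cells with neither mark. Fibrillar Col5a2 and short-chain Col8a1, both described in the next comparison, did not pass between endothelial and other cells (adjusted p = 0.393 and 0.0675), and both were lower in endothelial cells once SS HTN was left out (-1.57 and -2.61, adjusted p = 0.00145 and 1.50e-05).

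**Figure D3:**
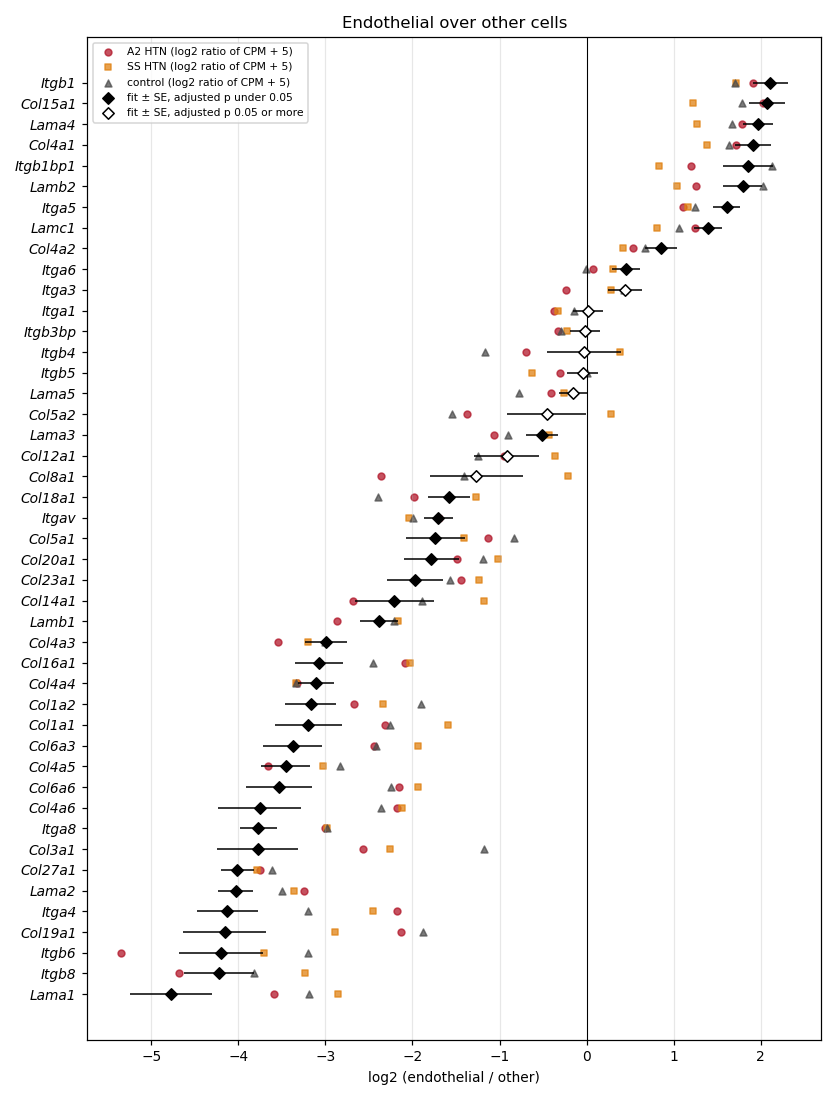
Log2 of endothelial over other cells for 45 of the 46 members: coloured points give the ratio of CPM + 5 in each library, and diamonds the edgeR fit with its SE, filled at an adjusted p under 0.05. Itgb1 stands at the top at 2.11 and Lama1 at the bottom at -4.77.

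Within the endothelium, Col15a1, Lama4, Col4a1, Col4a2, Col4a4 and Itgb5 were lower and Itga3 was higher in Fbln5-positive, arterial-marked cells. Of 19 members with enough counts to test, 6 were lower and 1 was higher than in Igfbp3-positive cells at an adjusted p under 0.05, where 4.91% of 7123 genes were higher and 5.11% lower. The share lower stood above that of all genes, and the share higher near it. These 19 passed a filter on low counts, so their counts describe the tested members and not the whole set. The error in this contrast came almost wholly from all genes, so a small p does not measure agreement of the libraries in a gene. The median log2 difference was -0.45 over these members and -0.02 over all genes tested. The call count fell most without SS HTN, where 1 of 17 members passed, Col15a1 (-1.59, adjusted p = 0.0381). Without A2 HTN 4 of 21 passed (Col15a1, Lama4, Itga3 and Col14a1), and without control 15 of 30. Over all genes, 161 of 5186, 215 of 6996 and 1109 of 9250 were called in these 3 fits. Col4a1, Col4a2, Col4a4 and Itgb5 thus lost their calls without either hypertension library, and Lama4 without SS HTN (-1.09, adjusted p = 0.167). The log2 differences without A2 HTN and without SS HTN were -1.24 and -1.11 for Col4a1, -0.81 and -0.58 for Col4a2, -1.09 and -0.43 for Col4a4, and -1.60 and -0.89 for Itgb5.

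Col15a1 was at 68.7 CPM in Fbln5-positive and 274 CPM in Igfbp3-positive cells of A2 HTN, at 45.8 and 176 CPM in SS HTN, and at 236 CPM (4 UMIs) and 165 CPM in control. It fell by 1.82 ± 0.24 on the log2 scale (SE, n = 3 libraries, edgeR adjusted p = 7.28e-12). Lama4 was at 101 and 216 CPM, 41.3 and 181 CPM, and 118 (2 UMIs) and 212 CPM, and fell by 1.60 ± 0.24 (1.31e-09). Both hypertension libraries had Col15a1 and Lama4 lower in Fbln5-positive cells, while the control Fbln5-positive sum of 16977 UMIs from 7 cells gave Col15a1 higher. Col4a1 was at 492 and 1009 CPM, 342 and 752 CPM, and 353 (6 UMIs) and 724 CPM, and fell by 1.13 ± 0.26 (2.89e-04). Col4a2 was at 235 and 545 CPM, 156 and 460 CPM, and 707 (12 UMIs) and 346 CPM, and fell by 1.15 ± 0.23 (1.76e-05). Col4a1 was lower in Fbln5-positive cells of all 3 libraries and Col4a2 in the hypertension libraries.

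Itgb5 was at 50.6 CPM in Fbln5-positive and 104 CPM in Igfbp3-positive cells of A2 HTN, 24.5 and 85.5 CPM in SS HTN, and 118 (2 UMIs) and 103 CPM in control, and fell by 1.37 ± 0.30 (adjusted p = 1.14e-04). Col4a4 fell by 1.003 ± 0.32 (0.0229), with 36.1 and 61.5 CPM, 29.0 and 76.0 CPM, and 177 (3 UMIs) and 77.5 CPM. Itga3 was the member called higher, by 1.11 ± 0.32 (0.00945). It was at 32.5 and 30.1 CPM in A2 HTN, 94.8 and 33.6 CPM in SS HTN, and 177 (3 UMIs) and 25.8 CPM in control. The A2 HTN classes were alike in Itga3, and the difference stood in the SS HTN and control libraries.

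The other 12 tested members were not called. Itgb1 was at 604 CPM in Fbln5-positive and 615 CPM in Igfbp3-positive cells of A2 HTN, 915 and 809 CPM in SS HTN, and 648 (11 UMIs) and 543 CPM in control, a log2 difference of 0.04 ± 0.25. The difference was -0.45 for Lamc1, 0.42 for Lama5, 0.30 for Lama3, -0.22 for Itga1, -0.31 for Itga5, 0.25 for Itgav and -0.55 for Itga6 (adjusted p = 0.0885). Lamb2 was at 148 and 170 CPM, 179 and 151 CPM, and 58.9 (1 UMI) and 165 CPM. Col4a3 missed the threshold at -0.62 (adjusted p = 0.0521) and passed with equal totals (0.0399).

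Another 5 members, all scarce, stood higher in Fbln5-positive cells of both hypertension libraries but had too few counts for the filter. Col5a2, a fibrillar chain that regulates fibre width, had 16 UMIs (57.8 CPM) in Fbln5-positive and 22 UMIs (6.07 CPM) in Igfbp3-positive cells of A2 HTN, 72 UMIs (110 CPM) and 5 UMIs (3.65 CPM) in SS HTN, and none in either class of control. Col8a1, a short-chain collagen of vessel walls, was at 68.7 CPM in Fbln5-positive cells of A2 HTN and 74.9 CPM of SS HTN, where Igfbp3-positive cells had 4 UMIs each, and the control classes had 0 and 2 UMIs. Col18a1 was at 134 and 8.27 CPM in A2 HTN, 84.1 and 15.3 CPM in SS HTN, and 0 and 5.17 CPM (1 UMI) in control. The differences ran the same way in both hypertension libraries, and the 7 control cells gave no count of these 3 genes.

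Itgb4, the beta chain of the hemidesmosomal laminin receptor, was at 28.9 CPM in Fbln5-positive cells of A2 HTN and 56.5 CPM of SS HTN, where Igfbp3-positive cells had 6 and 10 UMIs, and was at 0 in both control classes. Col14a1, a fibril-associated chain, was at 18.1 and 26.0 CPM in Fbln5-positive cells of A2 HTN and SS HTN, with 6 UMIs in each Igfbp3-positive sum. In control it was at 177 CPM (3 UMIs) in Fbln5-positive cells and at 0 in Igfbp3-positive cells. In a fit with no filter, 12 of 46 members were called, where 769 of 11040 genes were. There Col8a1 (4.87), Col5a2 (3.87), Itgb4 (3.30), Col14a1 (3.20) and Col18a1 (3.19) were higher in Fbln5-positive cells. These 5 genes are named because they stood higher in the same cells, so this fit gives no separate support. The UMIs of Col5a2 came from 11 of 69 Fbln5-positive cells in A2 HTN and 40 of 189 in SS HTN, against 18 of 774 and 5 of 558 Igfbp3-positive cells. Those of Col8a1 came from 10 and 19 cells, with at most 7 UMIs in 1 cell, against 3 and 4 Igfbp3-positive cells. The median cell held 4097 and 3301 UMIs in the Fbln5-positive and 4804 and 2290 in the Igfbp3-positive class of A2 HTN and SS HTN.

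Markers of stromal and mural cells were also higher in Fbln5-positive than in Igfbp3-positive cells of both hypertension libraries, and lower in control. The 10 such markers among the shared genes summed to 257, 102 and 0 CPM in Fbln5-positive cells of A2 HTN, SS HTN and control, with 4, 3 and 10 of them at 0, and to 14.3, 39.5 and 62.0 CPM in Igfbp3-positive cells, with 0, 0 and 4 at 0. When endothelial cells with 3 or more UMIs of the stromal and mural list or of the leukocyte list were left out, Col5a2 stood at 28.5 CPM in Fbln5-positive and 5.96 CPM in Igfbp3-positive cells of A2 HTN, and at 103 and 3.69 CPM in SS HTN. Col8a1 then stood at 32.6 and 1.13 CPM in A2 HTN and 71.0 and 2.95 CPM in SS HTN, and Itgb4 at 28.5 and 1.70 CPM and 56.8 and 7.37 CPM. Col14a1 stood at 8.15 CPM (2 UMIs) and 1.70 CPM in A2 HTN and 25.3 and 4.42 CPM in SS HTN, and Col18a1 at 85.5 and 7.66 CPM and 86.8 and 15.5 CPM. Without those cells the Fbln5-positive levels of Col5a2, Col8a1, Col14a1 and Col18a1 in A2 HTN were below those of the full class, while that of Itgb4 and the SS HTN levels changed little. All 5 genes stayed above the Igfbp3-positive level in both hypertension libraries.

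**Figure D4:**
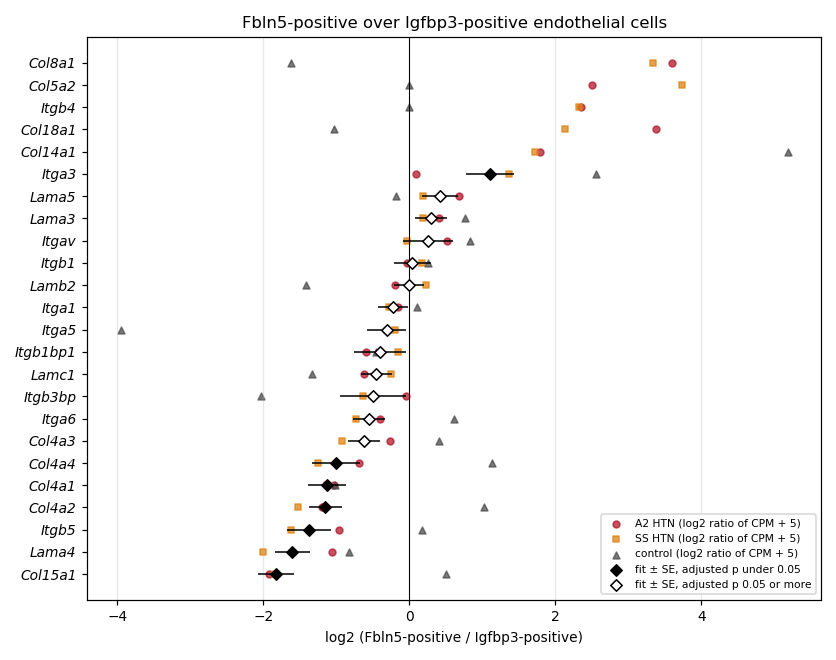
Log2 of Fbln5-positive over Igfbp3-positive endothelial cells: coloured points give the ratio of CPM + 5 in each library, and diamonds the edgeR fit with its SE, filled at an adjusted p under 0.05, for the 19 members tested and for 5 scarce members without a fit. Col15a1 stands at the bottom at -1.82, and Col8a1 and Col5a2 lie far above 0 in both hypertension libraries.

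Between the hypertension libraries, endothelial cells of A2 HTN held more Col15a1 and Col4a1 and less of 10 other members, among them Col5a2, Col8a1, Itgb4 and Itgb6, than those of SS HTN. Members were counted as past the fold when the ratio of CPM + 5 was at least 1.5 in either direction over 20 or more UMIs. Of 40 members tested, 2 were higher and 10 lower in A2 HTN, where 3.26% of 10698 genes were higher and 7.57% lower. The share of members lower stood above that of all genes, and the share higher near it. The median log2 ratio was -0.25 over the members and -0.03 over all genes tested. Ratios below are of CPM without the added 5, with 95% exact binomial intervals that cover counting error only, and with 1 pooled sample a library they carry no p. Log2 ratios under other settings keep the added 5, which draws them towards 0, so they are not on the scale of these ratios. The interval left out 1 for all 12 members.

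Col15a1 was at 236 CPM in A2 HTN and 133 CPM in SS HTN, a ratio of 1.78 (1.61 to 1.97). Col4a1 was at 905 and 593 CPM, a ratio of 1.53 (1.45 to 1.60). Short of the fold, Col4a2 had a ratio of 1.43 (1.34 to 1.53), Lama4 1.48 (1.33 to 1.64), Itga5 1.47 (1.26 to 1.72) and Lamc1 1.24 (1.12 to 1.38). Col4a1, Col4a2, Col15a1, Lama4 and Lamc1 were thus all higher in A2 HTN by more than counting error, while Lamb2 (1.04, 0.935 to 1.15) and Lama5 (0.967, 0.833 to 1.12) were not. Itgb1 went the other way, at 614 CPM in A2 HTN and 834 CPM in SS HTN, a ratio of 0.736 (0.701 to 0.772).

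The 5 scarce members that stood higher in Fbln5-positive cells were lower in A2 HTN. Col5a2 was at 8.14 CPM in A2 HTN and 33.3 CPM in SS HTN (ratio 0.245, 0.170 to 0.346), Col8a1 at 6.15 and 24.5 CPM (0.252, 0.165 to 0.375), Itgb4 at 4.71 and 19.7 CPM (0.239, 0.147 to 0.377), Col14a1 at 3.26 and 11.9 CPM (0.275, 0.150 to 0.482) and Col18a1 at 27.0 and 45.9 CPM (0.588, 0.470 to 0.734). Fbln5-positive cells made up 5.63% of endothelial cells in A2 HTN, 12.4% in SS HTN and 4.83% in control, and Igfbp3-positive cells 63.2%, 36.7% and 46.9%. Another setting gave equal weight to the Fbln5-positive and Igfbp3-positive classes, to endothelial cells with both genes and to those with neither. The log2 ratio of CPM + 5 was then -1.07 for Col5a2, -0.87 for Col8a1, -0.88 for Itgb4 and -0.35 for Col14a1. It was 0.64 for Col15a1, 0.43 for Col4a1 and 0.09 for Col18a1. Then 7 of 40 members were past the fold in place of 12, where 9.02% of all genes were in place of 10.8%. Col18a1 thus changed direction once the classes weighed the same. Col14a1 and Col4a1 were no longer past the fold, while Lama2 (0.92) was.

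A further 4 members lower in A2 HTN were, like Col14a1 and Col18a1, higher in other cells than in endothelial cells. Itgb6 was at 10.9 CPM in A2 HTN and 21.9 CPM in SS HTN (ratio 0.495, 0.350 to 0.696), Itgb8 at 4.71 and 14.1 CPM (0.333, 0.201 to 0.540), Col4a5 at 5.61 and 16.6 CPM (0.337, 0.213 to 0.524) and Col27a1, a fibrillar chain of cartilage, at 6.52 and 13.1 CPM (0.497, 0.316 to 0.775). The tubule list moved with them, at 569 CPM in A2 HTN and 1000 CPM in SS HTN. Leaving out endothelial cells in which that list held over 2% of UMIs kept 1223 of 1225 cells in A2 HTN and 1514 of 1519 in SS HTN. Tubule RNA spread over the kept cells was thus not tested. The log2 ratio of CPM + 5 of A2 HTN over SS HTN was then -0.79 for Itgb6, -1.06 for Itgb8, -0.99 for Col4a5 and -0.62 for Col27a1. With the endothelial classes given equal weight it was -0.19 for Itgb6, -0.53 for Itgb8, -0.61 for Col4a5 and -0.71 for Col27a1, so that Itgb6 and Itgb8 were no longer past the fold.

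**Figure D5:**
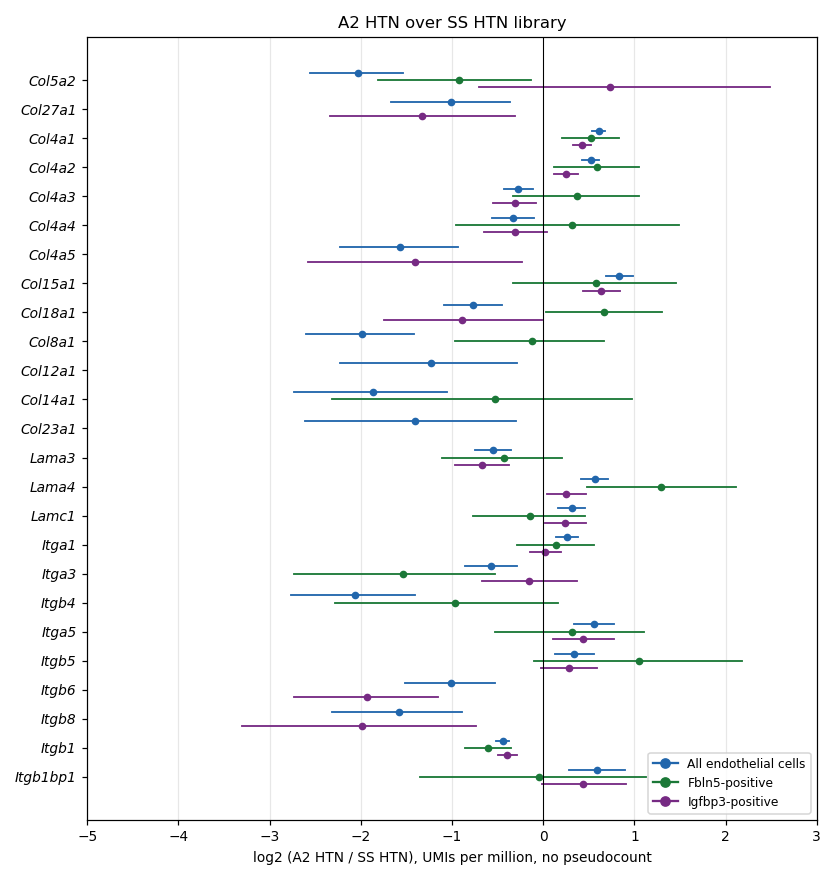
Log2 ratio of A2 HTN over SS HTN (CPM without an added 5) of members in all endothelial, Fbln5-positive and Igfbp3-positive cells, with 95% exact binomial intervals (bars, counting error only). Col15a1 lies above 0 and Itgb1 below 0 in all 3 groups of cells, though the Fbln5-positive interval of Col15a1 crosses 0.

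Within Igfbp3-positive cells, 1 of 26 members tested was higher and 6 were lower in A2 HTN than in SS HTN, where 5.34% of 9994 genes were higher and 6.26% lower, so that the share lower again stood above that of all genes. With every cell thinned to 1000 UMIs this no longer held: 0 of 17 members were higher and 1 was lower, where 12.2% of 6338 genes were higher and 9.44% lower. Col15a1 was higher, at 274 CPM in A2 HTN and 176 CPM in SS HTN (ratio 1.56, 1.35 to 1.80). Col4a1 was at 1009 and 752 CPM, short of the fold. Lama3, the alpha chain of epithelial laminin, was at 72.0 and 115 CPM (0.628, 0.513 to 0.770), and Itgb1 at 615 and 809 CPM (0.760, 0.707 to 0.818), short of the fold. Itgb6 (0.262, 0.151 to 0.449), Itgb8 (0.252, 0.101 to 0.599), Col27a1 (0.398, 0.198 to 0.805), Col4a5 (0.378, 0.167 to 0.854) and Col18a1 (0.539, 0.299 to 0.991) made up the rest.

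Within Fbln5-positive cells, 3 of 24 members tested were higher and 4 lower, where 10.5% of 7137 genes were higher and 12.7% lower, shares close to those of the members. Lama4 was at 101 CPM in A2 HTN and 41.3 CPM in SS HTN (ratio 2.45, 1.39 to 4.33) and Col18a1 at 134 and 84.1 CPM (1.59, 1.02 to 2.46). Itga3 was at 32.5 and 94.8 CPM (0.343, 0.150 to 0.695), Col5a2 at 57.8 and 110 CPM (0.526, 0.285 to 0.913) and Itgb1 at 604 and 915 CPM (0.659, 0.552 to 0.784). The log2 ratio of Col18a1 turned to -0.02 without cells that held 3 or more stromal or leukocyte UMIs, and that of Col5a2 to 0.07 as a mean over cells. The intervals of Itgb5 and Itgb4, also past the fold, held 1. Both class sums thus had Itgb1 lower in A2 HTN, and Lama4 higher.

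Over control, 3 of 32 members tested were higher and 8 lower in A2 HTN endothelial cells, where 8.79% of 10225 genes were higher and 11% lower. The share of members higher was near that of all genes, and the share lower above it. Without tubule-rich cells 4 of 31 members were lower, where 10.1% of all genes were. Without control library 1 it was 3 of 32, where 8.24% of all genes were. The share lower was thus near that of all genes in both settings. Col4a1 was at 905 CPM in A2 HTN and 599 CPM in control (ratio 1.51, 1.32 to 1.73), and Itga5 at 93.0 and 58.3 CPM (1.60, 1.04 to 2.57). Col15a1, at 236 and 156 CPM (1.51, 1.17 to 1.998), Col4a2 (1.44, 1.21 to 1.73) and Lama4 (1.43, 1.09 to 1.93) were higher by more than counting error and short of the fold. Equal weight for the endothelial classes lets the 7 Fbln5-positive control cells, and the 5 with both genes, count as much as each larger class. The log2 ratio then turned to -0.16 for Col15a1 and was 0.08 for Col4a2. Itgb6 was at 10.9 CPM in A2 HTN and 47.7 CPM in control (0.228, 0.133 to 0.410), Col4a5 at 5.61 and 18.5 CPM (0.303, 0.131 to 0.814), Col4a4 at 60.3 and 95.4 CPM (0.632, 0.447 to 0.918) and Itga3 at 37.5 and 60.9 CPM (0.615, 0.399 to 0.992). The other 5 past the fold, Col18a1, Col27a1, Col14a1, Lamb1 and Itgb8, had intervals that held 1. Col4a4 turned to 0.09 on the log2 scale with endothelial cells taken from 5 UMIs and 20 per 10000.

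The SS HTN library had 6 of 33 members higher and 2 lower than control, where 10.8% of 10282 genes were higher and 10.1% lower. Members were tested on 20 or more UMIs over both sums, of 3965775 UMIs in SS HTN and 377434 in control. Scarce members thus entered mainly through SS HTN, so these counts describe the tested members and not the whole set. With the endothelial rule at 2 UMIs and 8 per 10000, 3 of 39 members were higher and 14 lower, where 6.76% of all genes were higher and 18.2% lower. Col5a2 was at 33.3 CPM in SS HTN (132 UMIs) and 5.30 CPM in control (2 UMIs), a ratio of 6.28 (1.71 to 52.4). Itgb4 had 78 and 1 UMIs (7.42, 1.29 to 297), Col18a1 182 and 6 UMIs (2.89, 1.30 to 7.97) and Col8a1 97 and 3 UMIs (3.08, 1.02 to 15.2). The control counts of these 4 genes are so small that the size of their ratios is barely bounded. Itgb6 was at 21.9 and 47.7 CPM (0.460, 0.275 to 0.812) and Itgb1bp1 at 33.8 and 68.9 CPM (0.491, 0.321 to 0.778). Itgb6 turned to 0.30 on the log2 scale with endothelial cells taken from 5 UMIs and 20 per 10000, and Itgb1bp1 to 0.19 without control library 2. Itgb1 was at 834 and 623 CPM (1.34, 1.17 to 1.54), short of the fold, and Col4a1 at 593 and 599 CPM. The interval of Col12a1, also past the fold, held 1. Both comparisons share the control cells.

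The 2 control libraries stood apart in these genes. Control library 1, with 19 endothelial cells, and control library 2, with 126, held 320 CPM (11 UMIs) and 627 CPM of Col4a1, 29.1 CPM (1 UMI) and 169 CPM of Col15a1, and 437 and 641 CPM of Itgb1. Itgb6 was at 233 CPM (8 UMIs) and 29.1 CPM, Col4a4 at 407 CPM (14 UMIs) and 64.1 CPM, Col4a5 at 146 CPM (5 UMIs) and 5.83 CPM and Itga3 at 146 CPM (5 UMIs) and 52.5 CPM. Library 1 thus had the lower level of Col4a1, Col15a1 and Itgb1 and the higher level of Itgb6, Col4a4, Col4a5 and Itga3, on the few UMIs of 19 cells. Members past the fold in A2 HTN numbered 6 of 32 without control library 1 and 26 of 30 without control library 2, against 11 of 32 with both, where 18.9%, 72.3% and 19.8% of all genes were past it. For SS HTN they numbered 9, 25 and 8 of 33, where 23.7%, 70.8% and 20.9% of all genes were. Leaving out endothelial cells rich in tubule UMIs kept 1223 of 1225 cells in A2 HTN and 142 of 145 in control, with 16 of 19 in control library 1. The log2 ratio of CPM + 5 of A2 HTN over control was then -1.27 for Itgb6, -1.02 for Col4a5, -0.41 for Col4a4 and 0.58 for Col4a1.

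Proteins that work with the members were taken from 5 lists. Of 8 tested basement membrane partners, 1 was higher and 4 were lower in Fbln5-positive than in Igfbp3-positive cells, where 4.91% of all genes tested were higher and 5.11% lower, a background that holds for the counts of all 5 lists in this contrast. Vwa1, a matrix protein that binds perlecan, was at 14.5 and 94.6 CPM in A2 HTN, 7.64 and 51.1 CPM in SS HTN and 0 and 41.3 CPM in control, and fell by 2.73 ± 0.44 (edgeR adjusted p = 4.30e-08). Nid2, a nidogen that bridges laminin and type IV collagen, fell by 1.37 ± 0.49 (0.0487). Hspg2, the heparan sulfate proteoglycan perlecan, was at 249 and 503 CPM, 170 and 469 CPM, and 118 and 538 CPM and fell by 1.33 ± 0.23 (3.81e-07). The fall of Nid2, Hspg2 and Vwa1 stood beside that of Col4a1, Col4a2, Col15a1 and Lama4 in the same cells.

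Of 15 tested collagen assembly enzymes, 1 was higher and 2 were lower in Fbln5-positive cells: the prolyl hydroxylase subunit P4ha2 (1.32) rose, and the galactosyltransferase Colgalt2 (-1.12) and the lysyl hydroxylase Plod1 (-0.85) fell. Of 12 matrix proteases and inhibitors, 3 were called, each higher, and 4 more were untested for low counts. Timp2, a metalloproteinase inhibitor, was at 123 and 9.38 CPM in A2 HTN, 165 and 24.1 CPM in SS HTN and 118 and 20.7 CPM in control, higher by 3.13 ± 0.29 (adjusted p = 2.73e-24). Adamts5 (1.58), an aggrecanase, and Plat (0.82), tissue plasminogen activator, were the others. Of 26 integrin adhesion partners 3 rose and 3 fell, among them Tns3 (1.47), Tln2 (1.40) and Lims2 (-0.84), which link integrin tails to actin. Of 9 other matrix receptors, the tetraspanin Cd63 (1.75) rose, and Cd36 (-0.96) and Cd47 (-0.78), both thrombospondin receptors, fell.

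Between endothelial and other cells, where 35.5% of all genes tested were higher and 36.5% lower, each list was called in both directions. Basement membrane partners were higher in 5 and lower in 3 of 12, with Tinagl1 at 3.43 and the epithelial Fras1 (-4.35) and Frem1 (-4.33) at the other end. Assembly enzymes were higher in 10 and lower in 4 of 20, with the collagen chaperone Serpinh1 at 2.72, P3h2 at -4.03 and Loxl1 at -2.98. Proteases and inhibitors were higher in 8 and lower in 5 of 16 (Plat 3.64, Adamts2 -3.53, Mmp15 2.85), adhesion partners in 15 and 10 of 32 (Ptk2b -4.42, Fermt1 -4.23, Src -3.94), and other receptors in 7 and 8 of 15 (Sdc2 -4.26, Mrc2 -3.48, Sdc4 -3.33). Serpinh1, which folds procollagen, was at 301 CPM in endothelial and 54.8 CPM in other cells of A2 HTN, 252 and 67.6 CPM in SS HTN, and 209 and 26.8 CPM in control.

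Between A2 HTN and SS HTN endothelial cells, 2 basement membrane partners of 10 were past the fold upwards and 2 downwards, where 3.26% of all genes were higher and 7.57% lower. Vwa1 was at 88.9 CPM in A2 HTN and 32.0 CPM in SS HTN, Ntn4, a laminin-related netrin, at 173 and 422 CPM, and Fras1 at 4.71 and 11.6 CPM. Of 15 proteases and inhibitors, 0 were higher and 3 lower, with Timp2 at 19.9 and 68.8 CPM, Mmp16 at 3.98 and 18.9 CPM and Adamts5 at 12.8 and 29.3 CPM. Assembly enzymes stood at 1 and 2 of 19, with P3h2 at 12.7 and 33.8 CPM, P4ha1 at 52.7 and 94.6 CPM and Bmp1, the procollagen C-proteinase, at 26.2 and 15.4 CPM. Adhesion partners stood at 3 and 6 of 31, with Kank1 at 9.95 and 32.8 CPM, Ptk2b at 3.44 and 13.9 CPM and Vasp at 105 and 55.5 CPM, and other receptors at 1 and 3 of 15, with the laminin-receptor tetraspanin Cd151 at 273 and 120 CPM, Sdc4 at 7.06 and 18.2 CPM and Ddr1 at 2.71 and 7.82 CPM.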

How the data were processed

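The authors deposited tables of UMI counts per gene and cell, whole numbers that are not normalized. Cell Ranger 7.0.0, Seurat 4.1 and mm10 appear in the submitters' processing notes, where no role is given to any of them, and libraries were made with a droplet 3′ kit, per the labels' protocols. No cell annotation was used. The 3 library tables were used, and a table that joins both hypertension libraries served as an alternative. Genes listed in all 3 tables held 98.7, 99.0 and 99.1% of the UMIs of the A2 HTN, SS HTN and control table. No doublet caller was run, so doublets remain. UMIs were summed per library and class and scaled to CPM (UMIs per 1000000 UMIs of the shared genes in that sum). A 3′ count is not scaled by gene length, so levels were compared between groups of cells and not between genes. Classes were compared with edgeR 4.0.16 in R 4.3.3 (quasi-likelihood test, TMM factors, filterByExpr, library as a block, adjusted p over all genes kept), without the 6 genes that define the classes, and the procedure was tested on simulated data. With pooled kidneys, its p-values rest on the spread between 3 libraries, estimated for a gene together with all other genes. Between Fbln5-positive and Igfbp3-positive cells that spread was taken almost wholly over all genes. A small p there does not measure agreement of the libraries in a gene. Libraries were compared as the log2 ratio of CPM + 5, with exact 95% Poisson or binomial intervals for counting error from scipy 1.17.1. Members called in a class contrast, members past the fold with an interval clear of no change, and a set of central chains were given in every library, and of each partner list the 3 genes with the greatest changes among those called. A member that was counted but has no value of its own in the text is not reported here. The members and lists were chosen with earlier results of these data known. Positions come from a GRCm38 annotation and start windows from RefSeq.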

Additional observations from a re-analysis of the deposited data

How the results depend on the processing

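Between Fbln5-positive and Igfbp3-positive cells, 7 members were called, where 714 of 7123 genes were. DESeq2 called 3 members (241 of 7123 genes), and a fit with no filter 12 (769 of 11040). Cells thinned to 1000 UMIs gave 2 (109 of 990), and cells with both genes counted in both classes 14 (834 of 8736). Leaving out 1 library gave 1 to 15 members (161 of 5186 to 1109 of 9250 genes). Between endothelial and other cells, 37 were called, where 7959 of 11043 genes were. The alternatives gave 33 to 39 members and 5557 of 10611 to 8155 of 11043 genes. With 1 library left out there were 35 to 39 members and 6917 to 7713 of 11043 genes. Without the replicate block the 2 contrasts called 6 and 38 members (494 of 7123 and 8108 of 11043 genes). The labels carry no replicate numbers, and the block is the library itself. Equal totals in place of TMM, chosen after seeing the data, gave 8 and 39 (784 of 7123 and 8155 of 11043 genes). Counts past the fold follow, each with the share of all genes past it under the same setting. Members in A2 HTN over control numbered 11 of 32 (19.8%), but 2 of 32 with a pseudocount of 20 CPM (7.26%) and 7 of 22 with 50 or more UMIs (17.1%). They numbered 20 of 35 with the endothelial rule at 2 UMIs and 8 per 10000 (28.8%) and 6 of 31 without tubule-rich cells (19.2%). With 1 control library left out they numbered 6 of 32 to 26 of 30 (18.9% to 72.3%). For SS HTN over control they numbered 8 of 33 (20.9%), but 13 of 46 with no minimum (21.8%) and 17 of 39 with the rule at 2 UMIs (24.9%). With 1 control library left out they numbered 9 to 25 of 33 (23.7% to 70.8%). For A2 HTN over SS HTN they numbered 12 of 40 (10.8%), but 5 with 20 CPM (4.79%) and 7 with classes weighted equally (9.02%). In Igfbp3-positive cells 7 of 26 (11.6%) became 1 of 26 with 20 CPM (4.15%) and 4 of 22 with 50 UMIs (9.81%). They became 14 of 46 with no minimum (12.3%) and 1 of 17 with thinned cells (21.6%). In Fbln5-positive cells 7 of 24 (23.2%) became 16 of 44 with no minimum (30.7%) and 12 of 28 with the rule at 2 UMIs (22.4%). They became 1 of 3 with thinned cells (44.4%) and 11 of 19 with positive cells taken from 2 UMIs (26.1%). Of 2860 values of single members, 2645 stayed within their counting interval or, in class contrasts, on their side of the threshold. Some of these changed sign. Over all values 178 changed sign, and for 170 of them the main value was neither called nor past the fold. Under the alternative some of the 170 were past it, such as Lama2 in A2 HTN over control at 1.003 (classes weighted equally). For the other 8 the main value was past the fold. These 8 were, over control, Col4a4 in A2 HTN at 0.0915 and Itgb6 in SS HTN at 0.30 (rule at 5 UMIs and 20 per 10000), Col18a1 in A2 HTN at -0.11 (rule at 2 UMIs), and, without control library 2, Col18a1 in A2 HTN at -0.0934 and Itgb1bp1 in SS HTN at 0.19 (0.71 and -1.005 without control library 1). Between A2 HTN and SS HTN they were Col18a1 at 0.0924 (classes weighted equally), Col5a2 in Fbln5-positive cells at 0.0695 (mean over cells) and Col18a1 there at -0.02 (without stromal or leukocyte UMIs). The causes were not tested. The 16977 UMIs of 7 control Fbln5-positive cells limit what that class can show.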

Other observations

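The family has 15 further collagen, laminin and integrin genes that are listed in only some of the 3 tables and take no part in the comparisons. Col13a1, a transmembrane collagen, had 215 UMIs (38.9 CPM) in endothelial and 15 UMIs (8.07 CPM) in other cells of A2 HTN, and 68 UMIs (17.1 CPM) and 10 UMIs (4.09 CPM) in SS HTN. Itgb3, the beta chain that pairs with Itgav and with the platelet chain Itga2b, was at 8.14 CPM in endothelial and 4.84 CPM in other cells of A2 HTN, and at 8.83 and 3.69 CPM in SS HTN. Col25a1, another transmembrane collagen, was at 3.80 and 3.23 CPM in A2 HTN and at 11.1 and 2.87 CPM in SS HTN. The levels of these 3 genes in control are not analysed here.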
